A study of Homo sapiens with 6 samples.

Results

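Transcripts of 9 genes that act in messenger RNA (mRNA) decay were followed across all 6 libraries of the series. They were the ZFP36-like genes ZFP36L1 and ZFP36L2, the BTG and TOB genes BTG1, BTG2, TOB1 and TOB2, and the genes CNOT1, CNOT6 and CNOT7 of the CCR4-NOT deadenylase. They are 9 of the 25702 gene identifiers in each count table, were matched by NCBI Gene identifier, and all 9 passed the filter on low counts. These genes were chosen by their function and with their levels by plasmid group and replicate number already known, so those levels are given as a description. Where a fit across all genes called one of them, the call is printed beside the share of all genes called and supports nothing about the 9.

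The cells were K562, an established erythroleukaemia line from a patient with chronic myeloid leukaemia, and all groups carried the same pCMV-HA plasmid backbone introduced by nucleofection. The plasmid was empty (EV), or drove wild-type MXD3 or the fusion STIM1::MXD3 from the CMV promoter. Each of the 3 groups had 2 libraries, numbered replicate 1 and replicate 2, which the study describes as separate transfections. Transient expression from a viral promoter in 1 cell line limits these groups as a model of the fusion in leukaemia. The labels give no time between transfection and RNA extraction, for which the study's methods state only a general time for assays of expression after transfection.

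MXD3 is a repressor of the MYC, MAX and MXD network, and in STIM1::MXD3 its amino-terminal repression domain is replaced by the start of STIM1. MXD3 read 9.33 and 11.7 CPM (counts-per-million, scaled by the TMM method of edgeR) in the EV libraries, 2523 and 2162 CPM with MXD3 and 1975 and 1849 CPM with STIM1::MXD3. STIM1 read 205 and 176 CPM in EV, 187 and 159 CPM with MXD3 and 471 and 453 CPM with the fusion. The transfected genes therefore followed the labels in all 6 libraries, although counts of plasmid and endogenous transcripts cannot be told apart.

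As background, most mRNAs begin to decay when their poly(A) tail is shortened. The CCR4-NOT complex removes the tail: CNOT1 is its scaffold, and CNOT6 and CNOT7 are catalytic deadenylase subunits from separate enzyme families. BTG and TOB proteins bind the CNOT7 class of deadenylase, and TOB proteins also bind the cytoplasmic poly(A)-binding protein. ZFP36L1 and ZFP36L2 are zinc finger proteins that bind AU-rich elements in 3′ untranslated regions (3′ UTRs) and recruit CCR4-NOT to those mRNAs. Transcripts of the ZFP36 family can carry AU-rich elements themselves. In blood cells, BTG1, BTG2 and the ZFP36-like genes are known for roles in quiescence and in lymphoid and erythroid development.

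The heptamer TATTTAT, written as DNA, is the core of the element that the ZFP36 family binds, and it was searched in the 3′ UTR of the canonical transcript of each gene (GENCODE release 44 lifted to GRCh37). ZFP36L1 and ZFP36L2 held 3 copies each, in 3′ UTRs of 1871 and 1917 bases, which is 1.60 and 1.56 copies per kilobase. CNOT6 held 2 copies in 4158 bases. BTG1 (3802 bases), BTG2 (2164 bases), TOB2 (2817 bases) and CNOT7 (5754 bases) held 1 copy each, and CNOT1 (1007 bases) and TOB1 (757 bases) held none. Among 19064 protein-coding genes with a 3′ UTR, 31.8% held at least 1 copy and 6.25% held at least 3, with a mean of 0.33 copies per kilobase. CNOT6 (0.48), BTG2 (0.46) and TOB2 (0.35) stood above that mean, and BTG1 (0.26) and CNOT7 (0.17) below it. The 7 windows shown are those of ZFP36L1, ZFP36L2 and BTG1, chosen because their levels, given below, differed most between libraries. Each has 29 bases, 5′ to 3′ on the strand of the gene, and the heptamer is in capitals.

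ZFP36L1, GRCh37 chr14:69255053-69255081, minus strand, 3′ UTR: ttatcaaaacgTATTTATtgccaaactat
ZFP36L1, GRCh37 chr14:69255011-69255039, minus strand, 3′ UTR: aattttgttcaTATTTATcgggatgacaa
ZFP36L1, GRCh37 chr14:69254794-69254822, minus strand, 3′ UTR: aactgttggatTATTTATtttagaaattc
ZFP36L2, GRCh37 chr2:43450587-43450615, minus strand, 3′ UTR: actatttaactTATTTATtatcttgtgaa
ZFP36L2, GRCh37 chr2:43450539-43450567, minus strand, 3′ UTR: tgttcatactgTATTTATcaagtatgatg
ZFP36L2, GRCh37 chr2:43450351-43450379, minus strand, 3′ UTR: attgtatgtaaTATTTATttcattaattt
BTG1, GRCh37 chr12:92534546-92534574, minus strand, 3′ UTR: aatagatttctTATTTATctgaaggtata

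The match is one of letters only and was not tested as a binding site. A copy of the heptamer lay at positions 1180, 1222 and 1439 of the ZFP36L1 3′ UTR, at positions 854, 902 and 1090 of that of ZFP36L2, and at position 3293 of that of BTG1, counted from 1 at the first base after the stop codon.

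Total counts were between 53048343 and 63835779 per library and did not separate the replicate numbers. The 9 genes were counted between 947 times (TOB1, MXD3 replicate 2) and 37174 times (ZFP36L2, MXD3 replicate 1) in a library. All 10 defining K562 genes reached 1 CPM (among them GATA1, TAL1, KLF1, HBG1 and TFRC). Their summed level was 8433 to 9501 CPM in the replicate 1 libraries and 6878 to 7759 CPM in the replicate 2 libraries, and by group 7759 to 8433 CPM in EV, 7654 to 8945 CPM with MXD3 and 6878 to 9501 CPM with the fusion. Of lymphoid markers 2 of 5 reached 1 CPM, with MS4A1 at 0 throughout and a sum of 15.0 to 22.0 CPM. Of granulocyte and monocyte markers 1 of 6 did (LYZ), with S100A8 at 0 and a sum of 21.6 to 27.2 CPM. All 6 genes of the epithelial and fibroblast list reached 1 CPM in at least 1 library, with a sum of 696 to 812 CPM. Most of that sum came from KRT8 (318 to 396 CPM), KRT18 (270 to 329 CPM) and EPCAM (77.9 to 101 CPM). The collagen genes were low, with COL1A1 at 2.00 to 2.83 CPM and COL1A2 at 0.609 to 1.18 CPM. PECAM1, also in that list, read 5.14 to 6.79 CPM.

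Levels between genes are compared per kilobase of the canonical transcript. ZFP36L2 stood highest, at 107 ± 43.5 CPM per kilobase (SD over 6 libraries). CNOT1 followed at 43.5 ± 1.73, BTG1 at 41.1 ± 11.9, ZFP36L1 at 40.8 ± 14.3 and BTG2 at 34.2 ± 2.45 CPM per kilobase. CNOT6 and CNOT7 stood at 14.3 ± 1.05 and 13.7 ± 1.23, and TOB1 and TOB2 at 8.39 ± 1.10 and 8.32 ± 0.58 CPM per kilobase. Neighbours from CNOT1 to BTG2 in this order did not differ beyond their spread, although CNOT1 and BTG2, at the ends of that stretch, did not overlap. The values of CNOT6 and CNOT7 overlapped, as did those of TOB1 and TOB2. The order in the middle changed with the replicate number. In the replicate 1 libraries ZFP36L1 (52.9 ± 6.28, SD, n = 3) and BTG1 (51.3 ± 4.19) stood above CNOT1 (43.1 ± 1.57) and BTG2 (34.2 ± 1.28). In the replicate 2 libraries CNOT1 (43.9 ± 2.13) stood above BTG2 (34.2 ± 3.65), BTG1 (30.9 ± 5.09) and ZFP36L1 (28.8 ± 6.55).

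**Figure D1:**
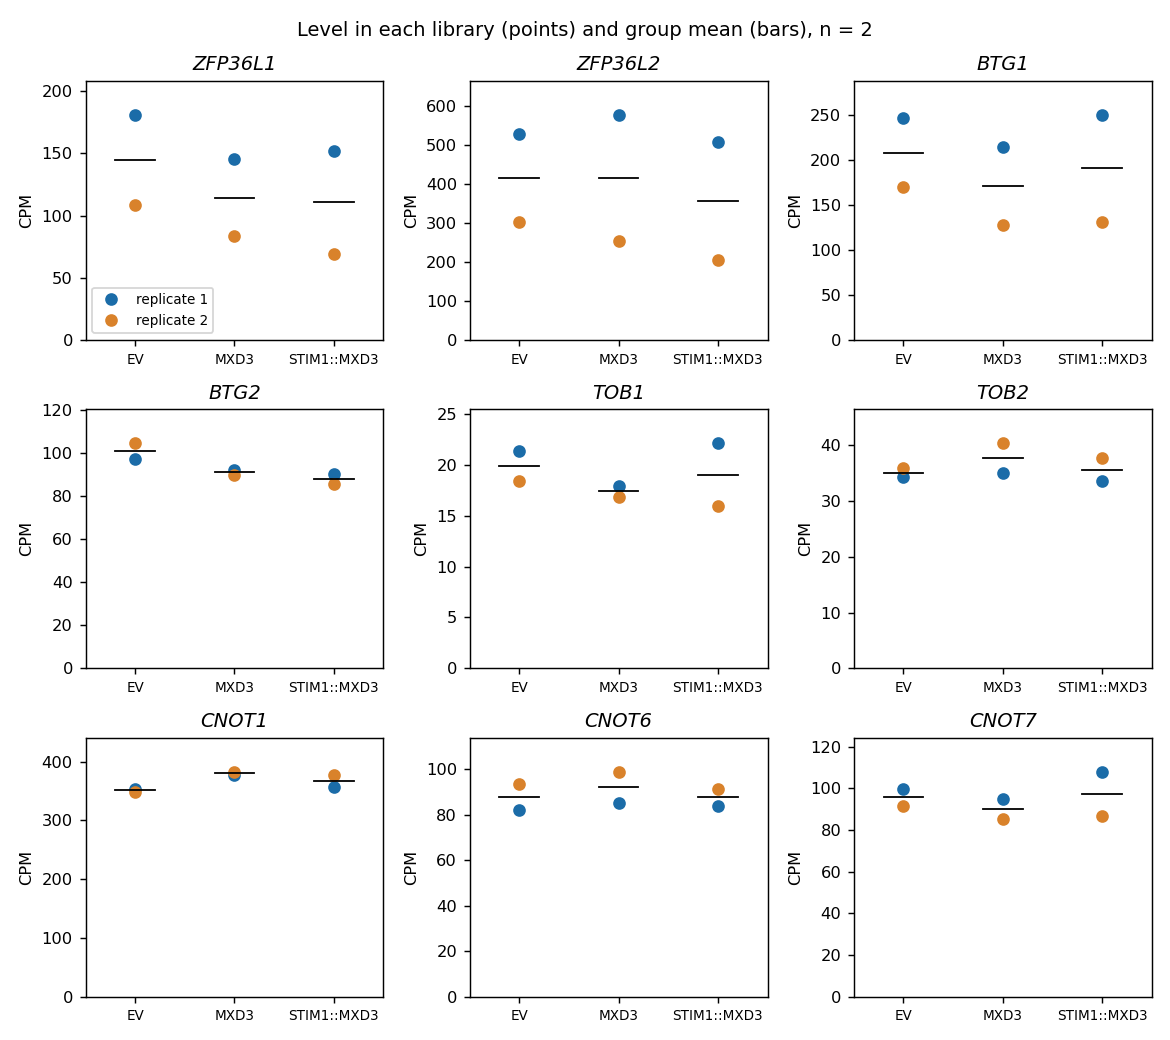
Level of each gene in CPM (vertical axes, each from 0) in the 2 libraries of each plasmid group (horizontal axes), with replicate 1 in blue, replicate 2 in orange and the group mean as a bar. ZFP36L1, ZFP36L2 and BTG1 split by replicate number in every group (for ZFP36L2, 509 to 579 against 205 to 303 CPM), while BTG2 and CNOT1 did not.

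Some of these genes share annotated exon bases with others (GENCODE, GRCh37), and the strand setting of the counting was not given in the sources used here. CNOT7 shares 2057 bases with the long non-coding gene ENSG00000289145 on the opposite strand. CNOT1 shares 1354 bases with SETD6 and 133 with ENSG00000276259, both on the opposite strand. ZFP36L2 shares 826 bases with ENSG00000287387 on the opposite strand and ZFP36L1 shares 512 with ENSG00000289626 on the same one. BTG1 shares 274 bases with BTG1-DT on the opposite strand and 503 with LINC01619 on the same one, and TOB1 shares 281 bases with TOB1-AS1 on the opposite strand. Reads in those parts cannot be assigned with certainty.

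The AU-rich element binding genes varied most. ZFP36L1 (Gene ID 677, minus strand of chromosome 14 in GRCh37 from 69254377 to 69262970) read 181 and 108 CPM in EV replicates 1 and 2, 145 and 83.3 CPM with MXD3, and 152 and 69.4 CPM with STIM1::MXD3. All replicate 1 libraries were above all replicate 2 libraries, and the group ranges overlapped. In bulk RNA, fewer cells that express a gene and less RNA per cell cannot be told apart. Between the numbers, replicate 2 was at 0.539 of replicate 1, a log2 fold change of -0.89 ± 0.08 (SE, edgeR with group in the fit). Within the pairs the log2 difference was -0.74 in EV, -0.80 with MXD3 and -1.13 with the fusion. Of all genes tested, 7.52% had a larger absolute log2 fold change between the replicate numbers.

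ZFP36L2 (Gene ID 678, chromosome 2, positions 43449541 to 43453745, minus strand) read 528 and 303 CPM in EV, 579 and 253 CPM with MXD3 and 509 and 205 CPM with the fusion. The lowest replicate 1 library (509 CPM) again lay above the highest replicate 2 library (303 CPM). The log2 fold change of replicate 2 against replicate 1 was -1.10 ± 0.09, a ratio of 0.465. Of all genes tested, 4.55% had a larger absolute log2 fold change, in either direction. By pair the log2 difference of ZFP36L2 was -0.80 in EV, -1.19 with MXD3 and -1.31 with the fusion. ZFP36, the founding member of the family and also known as tristetraprolin, read 16.4 to 22.4 CPM, and its difference of -0.15 ± 0.11 between the replicate numbers did not pass the threshold (adjusted p = 0.355, edgeR).

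Of the antiproliferative BTG genes, BTG1 (Gene ID 694, chromosome 12, positions 92534054 to 92539622, minus strand) had the same split. It read 246 and 170.1 CPM in EV, 215 and 128 CPM with MXD3 and 250.3 and 131 CPM with the fusion. All replicate 1 libraries were above all replicate 2 libraries. The log2 fold change between the numbers was -0.74 ± 0.08, a ratio of 0.599, with pair values of -0.53, -0.75 and -0.93 in EV, MXD3 and STIM1::MXD3. Of all genes tested, 10.8% had a larger absolute log2 fold change, in either direction. BTG2 (Gene ID 7832, chromosome 1, positions 203274619 to 203278730, plus strand), which p53 induces, read 97.1 and 105 CPM in EV, 92.3 and 89.8 CPM with MXD3 and 90.3 and 85.6 CPM with the fusion. The replicate numbers overlapped, and BTG2 was highest in the EV libraries. BTG3, the other family member tested, read 35.4 and 26.6 CPM in EV, 36.6 and 24.4 CPM with MXD3 and 36.9 and 21.8 CPM with the fusion. The log2 fold change of replicate 2 against replicate 1 was -0.58 ± 0.09 (adjusted p = 3.07e-04, edgeR over all genes tested).

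TOB1 (Gene ID 10140, chromosome 17, positions 48939584 to 48945339, minus strand) read 21.4 and 18.5 CPM in EV, 17.9 and 16.9 CPM with MXD3 and 22.1 and 15.9 CPM with the fusion. It was lower in replicate 2 in each pair, by -0.21, -0.09 and -0.47 on the log2 scale, with replicate numbers that overlapped over the 6 libraries. TOB2 (Gene ID 10766, chromosome 22, positions 41829498 to 41842805, minus strand) read 34.2 and 35.9 CPM, 34.9 and 40.3 CPM and 33.5 and 37.6 CPM in the same order. Its difference had the opposite sign, at 0.15 ± 0.08 between the replicate numbers.

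The deadenylase genes varied less than the ZFP36-like genes and BTG1. CNOT1 (Gene ID 23019, chromosome 16, positions 58553855 to 58663789, minus strand) read 354 and 349 CPM in EV, 378 and 383 CPM with MXD3 and 357 and 377 CPM with the fusion, and differed by 0.03 ± 0.06 between the numbers. CNOT6 (Gene ID 57472, chromosome 5, positions 179921379 to 180005358, plus strand) read 82.0 and 93.7 CPM, 85.1 and 99.0 CPM and 84.0 and 91.3 CPM in EV, MXD3 and STIM1::MXD3, higher in replicate 2 by 0.18 ± 0.07. CNOT7 (Gene ID 29883, chromosome 8, positions 17082475 to 17104387, minus strand) read 99.9 and 91.8 CPM, 94.8 and 85.6 CPM and 108 and 86.7 CPM, lower in replicate 2 by -0.20 ± 0.07. In both genes the 3 libraries of 1 number lay above the 3 of the other.

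In the edgeR fit with group as a term, 3 of the 9 genes (ZFP36L1, ZFP36L2 and BTG1) were called between the replicate numbers at an adjusted p under 0.05, all lower in replicate 2. Of all 15431 genes tested, 29.2% were called and 16.1% were called lower, and the 4499 called genes became 2580 on leaving out replicate 1 of the fusion and 2902 on leaving out its replicate 2. All replicate 1 libraries lay above all replicate 2 libraries for 4 of the 9 genes, against 20.6% of all genes, and the reverse held for TOB2 and CNOT6, against 18.0% of all genes. Since the replicate values were among those that chose the genes, nothing is read from these counts.

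**Figure D2:**
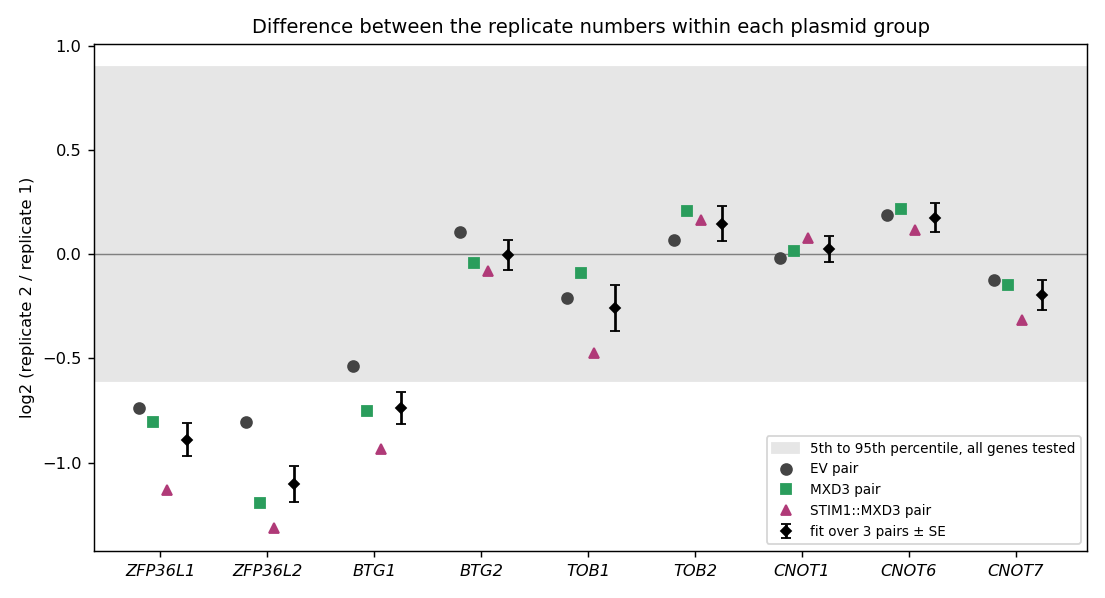
Log2 ratio of replicate 2 to replicate 1 (vertical axis) for each gene, within each plasmid pair (coloured symbols) and from the fit over the 3 pairs (diamonds, bars ± SE). The grey band runs from the 5th to the 95th percentile of all 15431 genes tested, -0.61 to 0.90, and the fitted values of ZFP36L1, ZFP36L2 and BTG1 lie below it.

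Other measures moved with the replicate number. Of the 10 defining K562 genes, 7 were called between the replicate numbers, 6 of them lower in replicate 2, as in the summed levels above. Of all genes with a mean of at least 5 CPM, 38.2% were called and 22.6% were called lower. Among the other markers tested, 0 of 4 lymphoid, 0 of 2 granulocyte and monocyte and 1 of 6 epithelial and fibroblast genes were called. Even numbers made up, of the values from 1 to 39 in a table, 59.8% to 62.7% in the replicate 1 libraries and 64.5% to 67.3% in the replicate 2 libraries. Their part in the levels of the 9 genes was not tested. The labels give no date, lane or batch for the replicate numbers.

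Other genes of the pathway were counted in the same contrast in 9 lists of mRNA-decay genes, with 96 of 101 genes tested, and 1 list of short-lived mRNAs, with 39 of 42 tested. Of the 96 decay genes, 44 passed the threshold (45.8%), 14 higher and 30 lower in replicate 2, with a median log2 fold change of -0.09 against 0.01 over all genes tested. Over the 10 lists together 68 of 135 genes passed, and 42 without STIM1::MXD3 replicate 1. Of these 135 genes, 123 had a mean level of at least 5 CPM, and of all genes at that level 38.2% were called. Of the other CCR4-NOT subunits 5 of 9 were called. CNOT3, a regulatory subunit that CNOT1 anchors, fell from 134 to 93.1 CPM in EV, from 105 to 82.0 CPM with MXD3 and from 114 to 75.7 CPM with the fusion (-0.49 ± 0.07, adjusted p = 1.86e-04). CNOT8 (-0.27), CNOT10 (-0.24) and CNOT11 (-0.22) were also called lower and TNKS1BP1 (0.23) higher, while CNOT6L, the close relative of CNOT6, differed by 0.02 ± 0.08 and was not called.

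The counts by list stand beside 29.2% called of all genes tested and 38.2% of those with a mean of at least 5 CPM. Among the other deadenylases 4 of 8 were called, with NOCT (-0.53), PDE12 (-0.31) and PAN3 (-0.30) lower and TOE1 (0.32) higher. The list of AU-rich element binding and related RNA-binding proteins had 12 genes, with ZFP36 but without ZFP36L1 and ZFP36L2. Of these 7 were called, 3 higher and 4 lower. HNRNPD, also known as AUF1, read 238 to 253 CPM in replicate 1 and 307 to 374 CPM in replicate 2 (0.49 ± 0.07, adjusted p = 1.14e-04). HNRNPAB (0.42) and KHSRP (0.21) were called higher too. ELAVL1, known as HuR and able to stabilise its targets, was called lower (-0.28 ± 0.07, adjusted p = 0.00493), as were PCBP1 (-0.48), TIAL1 (-0.27) and TIA1 (-0.24). The list thus held called genes of both signs.

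Of the other mRNA-binding adaptors 9 of 19 were called, 7 of them lower, from CPEB2 (-0.60) and SAMD4A (-0.49) to NANOS1 (0.55). Here too 29.2% of all genes tested were called, and 38.2% of those with a mean of at least 5 CPM. For decapping and decay from the 5′ end the count was 8 of 18, with DCP2, the decapping enzyme, at -0.46, XRN1, the exonuclease that follows it, at -0.30, and LSM7, a subunit of the ring that binds shortened tails, at 0.68. Nonsense-mediated decay had 5 of 12 (UPF2 -0.23, UPF3A 0.28), miRNA effector proteins 3 of 10 (AGO3 -0.35, TNRC6A 0.25) and poly(A)-binding proteins 2 of 7 (PABPC1 -0.21, PABPC3 -0.62). PABPC3 is a near-identical copy of PABPC1, so its counts are uncertain. BTG3 was the gene tested of the list of other BTG and TOB genes.

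Short-lived mRNAs with AU-rich elements, the kind of transcript that ZFP36-like proteins act on, had 24 of 39 genes called, 12 in each direction, with a median of -0.05. The share called was 61.5%, against 29.2% of all genes tested and 38.2% of those with a mean of at least 5 CPM. The list was written with earlier results of these data known, so nothing is read from this share. JUN read 235 to 301 CPM in replicate 1 and 78.2 to 204 CPM in replicate 2 (-1.31 ± 0.16, adjusted p = 3.35e-05). ID2 (-1.08), PIM1 (-1.02), SOCS1 (-0.97), CITED2 (-0.91) and BHLHE40 (-0.80) were also called lower. EGR1 went the other way, from 1.59 to 2.79 CPM in replicate 1 to 9.04 to 14.1 CPM in replicate 2 (2.36 ± 0.21, adjusted p = 2.95e-06, edgeR), with SOCS3 (1.24), CXCL8 (1.10), CCND1 (0.88), ID1 (0.85) and IER2 (0.67). The level of CXCL8 was low, at 0.327 to 1.48 CPM over all libraries.

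**Figure D3:**
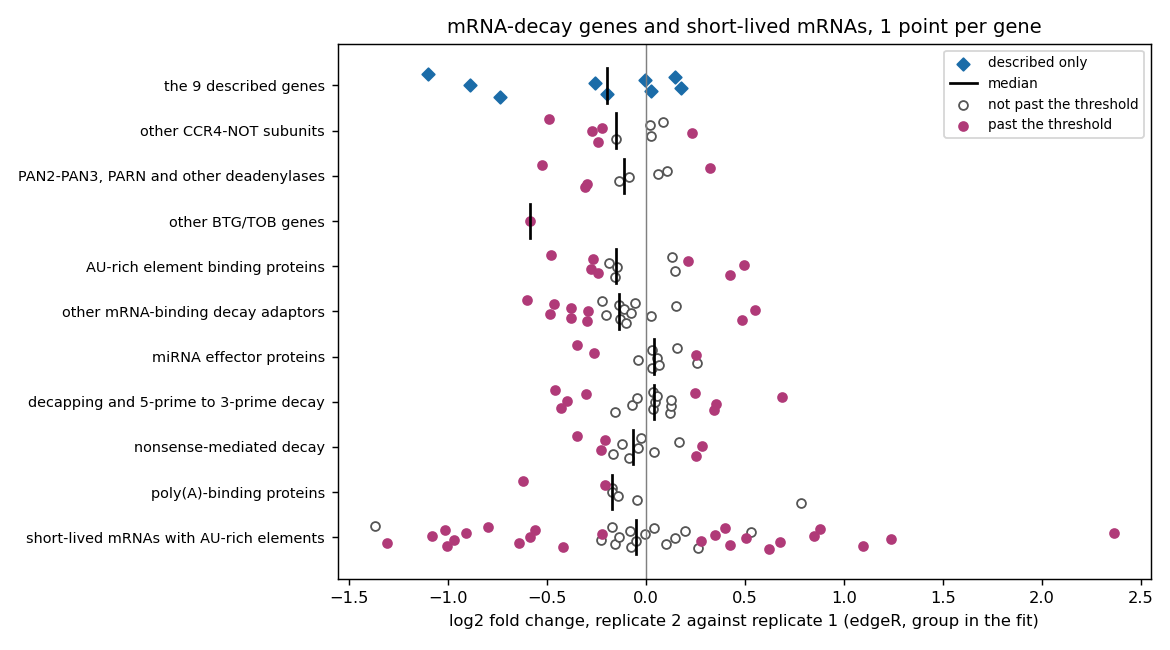
Log2 fold change of replicate 2 against replicate 1 (horizontal axis) for the 9 genes (diamonds, described only) and for each fixed list, 1 point per gene, filled where a list gene passed the threshold (adjusted p under 0.05) and with the median as a bar. Lists held genes of both signs past the threshold, except the single BTG/TOB gene and the poly(A)-binding proteins, and the short-lived mRNAs ran from -1.37 (DUSP6, not called) to 2.36 (EGR1).

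The 13107 other tested genes with a canonical 3′ UTR were also grouped by their number of TATTTAT heptamers. The median log2 fold change between the replicate numbers was 0.01 for 8661 genes with none, -0.05 for 2537 genes with 1, -0.08 for 1053 genes with 2, -0.10 for 856 genes with 3 or more and -0.16 for 194 genes with 5 or more. The share called lower was 15.6%, 21.3%, 23.6%, 25.5% and 29.4% in the same order, and the share called higher was 14.0%, 11.1%, 8.64%, 9.46% and 8.76%. Longer 3′ UTRs hold more heptamers by length alone. Within 3′ UTRs of at least 2000 and under 4000 bases the median was 0.03 for 1357 genes with none and -0.08 for 245 genes with 3 or more. In that length range 16.5% of the genes with none were called lower and 15.5% higher, against 22.9% and 9.80% of those with 3 or more. Genes within a group are not independent, and no test was run on the grouping. In the comparisons between plasmids, fitted by group, the medians of the same groups lay between -0.03 and 0.03.

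**Figure D4:**
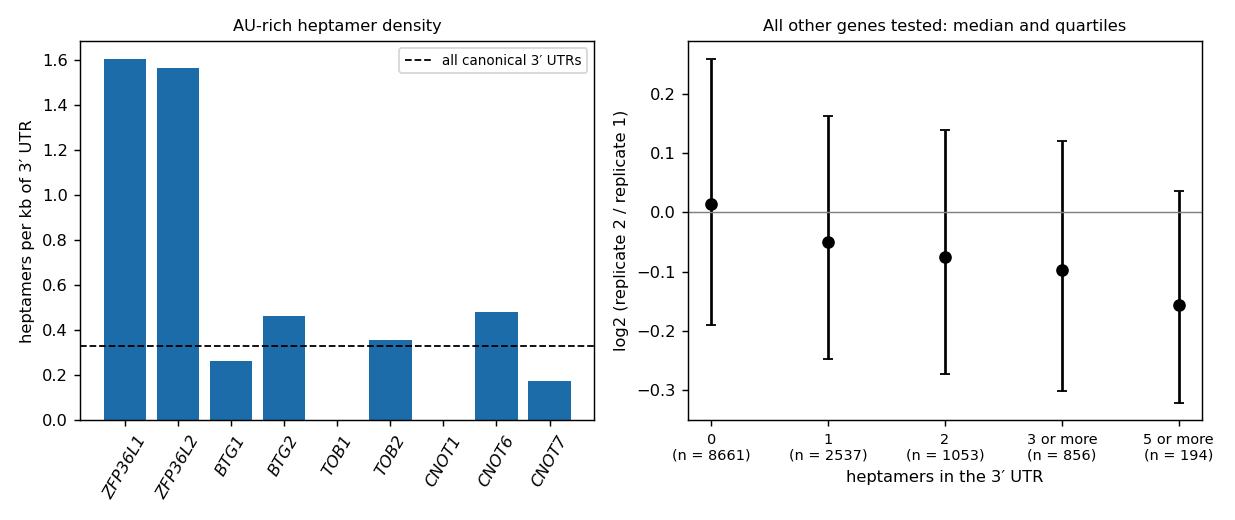
Left, TATTTAT heptamers per kilobase of 3′ UTR for each gene, with the mean over all canonical 3′ UTRs (0.33) as a dashed line. Right, median (points) and quartiles (bars) of the log2 ratio of replicate 2 to replicate 1 over the 13107 other tested genes with a canonical 3′ UTR, by number of heptamers, from 0.01 with none to -0.16 with 5 or more.

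The comparisons between plasmids asked what each construct changed against the empty vector and whether the constructs differed. Both comparisons against EV share the EV libraries. With the fusion, the log2 fold change against EV was -0.39 ± 0.43 for ZFP36L1, -0.22 ± 0.53 for ZFP36L2 and -0.13 ± 0.37 for BTG1 in the fit by group. Each SE exceeded its value, and the 2 libraries of every group were those split by replicate number above. With the replicate number as a block the values were -0.44 ± 0.10, -0.31 ± 0.10 and -0.18 ± 0.09. Within pairs ZFP36L1 was at -0.25 in replicate 1 and -0.64 in replicate 2, ZFP36L2 at -0.05 and -0.56, and BTG1 at 0.02 and -0.38. The pairs thus gave the same sign for ZFP36L1 and ZFP36L2, with the larger difference in replicate 2, and opposite signs for BTG1. Over the 14 alternatives in processing the values ran from -1.06 to 0.07 for ZFP36L1, from -1.02 to 0.29 for ZFP36L2 and from -0.67 to 0.26 for BTG1, lowest in each without STIM1::MXD3 replicate 1. These alternatives include leaving out each library, which splits a pair, as well as the replicate block and other scalings and filters.

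For MXD3 against EV the log2 fold change was -0.34 ± 0.43 for ZFP36L1, 0.00 ± 0.53 for ZFP36L2 and -0.28 ± 0.37 for BTG1 by group, and -0.35 ± 0.10, -0.07 ± 0.10 and -0.31 ± 0.09 with the block. Within pairs ZFP36L1 was at -0.32 and -0.38 and BTG1 at -0.20 and -0.41, both lower with MXD3 in each pair. ZFP36L2 had opposite signs, at 0.13 and -0.26. Between the constructs, STIM1::MXD3 minus MXD3, ZFP36L1 was at 0.07 and -0.26 in the pairs, ZFP36L2 at -0.19 and -0.31 and BTG1 at 0.22 and 0.04. The blocked values were -0.09 ± 0.10, -0.24 ± 0.10 and 0.13 ± 0.09.

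For the other 6 genes the log2 fold changes against EV lay between -0.20 and 0.11. BTG2 was at -0.20 ± 0.12 with the fusion and -0.15 ± 0.12 with MXD3 against EV, lower in each pair (-0.10 and -0.29, and -0.07 and -0.22). CNOT1 was at 0.06 ± 0.11 and 0.11 ± 0.11, higher in each pair (0.01 and 0.11, and 0.10 and 0.13). TOB1 was at -0.07 ± 0.20 and -0.20 ± 0.20, TOB2 at 0.02 ± 0.14 and 0.10 ± 0.14, CNOT6 at -0.00 ± 0.14 and 0.07 ± 0.14, and CNOT7 at 0.02 ± 0.15 and -0.09 ± 0.15. Each difference was under 2 times its SE in the fit by group. With the replicate block BTG2 was at -0.20 ± 0.09 with the fusion, more than 2 times its SE, and at -0.15 ± 0.09 with MXD3, and the values of the other 5 genes stayed under 2 times theirs.

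In edgeR, 0 of the 9 genes were called in any of the 3 plasmid comparisons. Over all genes the share called was 0.00648% for the fusion against EV (1 gene, MXD3), 0.00648% for MXD3 against EV (1 gene, MXD3) and 0 between the constructs, while 147, 287 and 156 genes had an unadjusted p under 0.05. With the replicate block it was 0.0194%, 0.292% and 0.00648% (3, 45 and 1 genes), and 0 of the 9 genes were among those called. In that fit 1312, 2149 and 1001 genes had an unadjusted p under 0.05, among them 3, 2 and 1 of the 9 genes. In DESeq2 with the block 0.117% of genes were called for the fusion against EV, ZFP36L1 among them. Both fusion libraries lay above both EV libraries for CNOT1 (12.0% of all genes) and below them for BTG2 (10.0%). Both MXD3 libraries lay above both EV libraries for CNOT1 (16.2%) and below for BTG2 and TOB1 (14.8%). The sign was the same in both pairs against EV for 3 genes lower with the fusion (25.1% of all genes) and 1 higher (27.1%), and with MXD3 for 5 lower (31.5%) and 3 higher (30.6%). The plasmid levels were among the values that chose the genes, so nothing is read from these counts either.

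**Figure D5:**
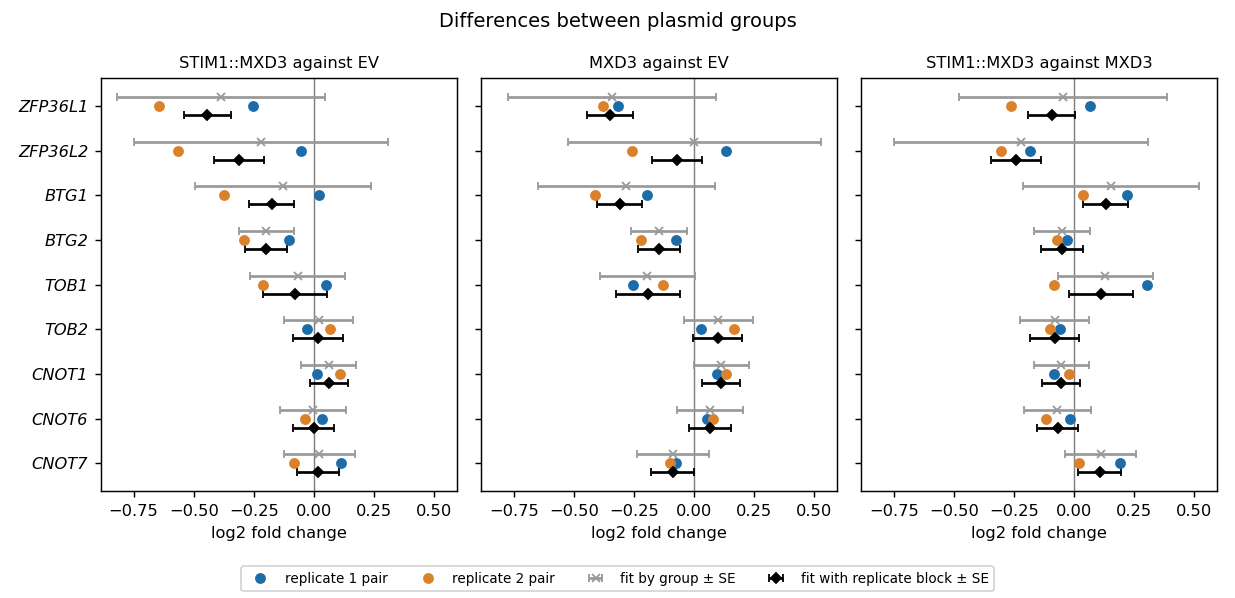
Log2 fold change (horizontal axes) of each gene in the 3 plasmid comparisons, within each replicate pair (circles), in the fit by group (grey crosses, ± SE) and in the fit with the replicate block (black diamonds, ± SE). For ZFP36L1 with the fusion the pairs lie at -0.25 and -0.64 and the blocked value at -0.44, while the values of CNOT1, CNOT6 and TOB2 lie near 0.

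Of the 135 other mRNA-decay and short-lived mRNA genes tested, 0 were called between plasmids by group in edgeR, with 1, 4 and 0 at an unadjusted p under 0.05 for the fusion against EV, MXD3 against EV and the fusion against MXD3. With the replicate block 25, 31 and 6 had an unadjusted p under 0.05 and 1 was called, CITED2 with MXD3 against EV. It read 253 and 161 CPM in EV, 143 and 91.1 CPM with MXD3 and 205 and 76.1 CPM with the fusion, and its log2 fold change with MXD3 was -0.82 ± 0.14 (adjusted p = 0.0274, edgeR with the replicate block), against -0.82 ± 0.47 by group (adjusted p = 0.999). With the fusion it was -0.67 ± 0.14 against EV (adjusted p = 0.185, edgeR with the block). CITED2 encodes a transcriptional co-regulator that competes for CBP and p300. In the fit by group the other CCR4-NOT subunits ran from -0.26 (CNOT3) to 0.28 (CNOT9) with the fusion and from -0.28 (CNOT3) to 0.41 (CNOT9) with MXD3, none of them called. The short-lived mRNAs ran from -0.68 (JUN) to 1.10 (GADD45B) and from -1.14 (DUSP6) to 1.33 (FOSB), where GADD45B, DUSP6 and FOSB were below 2 CPM in every library.

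Genes with the most similar pattern to each of the 9 were ranked by Pearson correlation of log2 CPM over the 6 libraries, among 7585 genes with a mean of at least 20 CPM. The points share libraries and the replicate shift, and the best of so many genes is high by selection, so r is a description. ZFP36L1 was closest to OGDH and CLK1 (r = 0.997 each), ZFP36L2 to DHCR7 (0.998) and RSRP1 (0.997), and BTG1 to LRRC8C (1.00) and CHST11 (0.999). CLK1 read 84.6, 73.4 and 75.6 CPM in replicate 1 and 58.7, 51.4 and 42.9 CPM in replicate 2 (EV, MXD3, STIM1::MXD3). For BTG2 these genes were DNAAF3 (0.984) and CBX1 (0.982), for TOB1 ABI1 (0.996) and ZCCHC7 (0.995), for TOB2 RBM41 (0.995) and SHMT1 (0.987), for CNOT1 DIS3L (0.985) and QDPR (0.980), for CNOT6 TSR1 (0.998) and EIF5A (0.983), and for CNOT7 CYB5R4 (0.998) and FAF1 (0.997).

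Promoters were searched because MXD3, as a partner of MAX, is known to bind the E-box CACGTG. Windows of 3 of the genes, which hold other elements, are shown as examples. Those of CNOT6, TOB1, TOB2 and the first ZFP36L1 start site are not shown. The windows are the 250 bases before a start site in RefSeq (GRCh38.p14), 5′ to 3′ on the strand of the gene, with the CCAAT box, the TATAAA box and the TGACGTCA element in capitals, on either strand.

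BTG1, chr12:92145847-92146096, minus strand: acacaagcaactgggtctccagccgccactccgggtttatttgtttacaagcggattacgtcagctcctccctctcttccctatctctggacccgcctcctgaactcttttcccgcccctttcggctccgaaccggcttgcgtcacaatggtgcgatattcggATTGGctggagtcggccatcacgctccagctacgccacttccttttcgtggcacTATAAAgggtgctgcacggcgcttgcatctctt
BTG2, chr1:203305269-203305518, plus strand: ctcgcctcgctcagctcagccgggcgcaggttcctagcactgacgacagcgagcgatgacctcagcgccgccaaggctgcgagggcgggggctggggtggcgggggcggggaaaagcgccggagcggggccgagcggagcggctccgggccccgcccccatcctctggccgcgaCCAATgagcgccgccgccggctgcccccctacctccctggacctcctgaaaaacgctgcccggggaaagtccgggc
ZFP36L1, chr14:68793417-68793666, minus strand, second start site: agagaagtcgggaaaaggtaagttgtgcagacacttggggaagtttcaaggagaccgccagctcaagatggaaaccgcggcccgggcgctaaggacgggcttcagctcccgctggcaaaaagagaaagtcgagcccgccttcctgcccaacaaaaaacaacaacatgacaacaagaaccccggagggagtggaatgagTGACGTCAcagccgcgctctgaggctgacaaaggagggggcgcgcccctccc

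The 8 windows of BTG1, BTG2, CNOT6, TOB1, TOB2 and ZFP36L1 were searched on both strands over 300 bases, the 250 above and 50 after the start. The promoters of ZFP36L2, CNOT1 and CNOT7 were not searched. CACGTG was in none of the 8 windows and in 7.26% of 35114 RefSeq promoters of that length. The CArG box, the serum response element, was also in none (1.29% of all). TGACGTCA, the full cAMP response element, began 52 bases before the second ZFP36L1 start site (1.85% of all). CCAAT was in 5 windows (34.6% of all), those of BTG1, BTG2, CNOT6 and 1 each of ZFP36L1 and TOB1, and TATAAA was in that of BTG1 alone, 33 bases before the start (11.5% of all). These are matches of letters and say nothing about binding in these cells.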

How the data were processed

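RNA of K562 cells in 3 plasmid groups was sequenced by the study as poly A libraries, read in pairs and aligned to hg19. The values deposited by the authors are raw counts per NCBI Gene identifier, 1 table per library, with no normalization. The submitters' processing notes name HISAT2 2.2.1 and featureCounts 2.0.1, while the study's methods name the DRAGEN RNA Pipeline. Annotation, strand and the counting of read pairs were not given in the sources used here. Counts that hold both ends of a pair would be too large, so they were also divided by 2. Symbols were matched for 23696 of 25702 identifiers (92.2%).

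Groups and replicate numbers came from the labels. Genes were kept with filterByExpr (15431), scaled with TMM and fitted over all 6 libraries by group, or by group and replicate number for the contrast of replicate 2 against replicate 1, with edgeR 4.0.16 (R 4.3.3) and its two-sided quasi-likelihood test. P-values were adjusted over all genes tested (Benjamini-Hochberg, threshold 0.05). The fit by group was tried on simulated counts that held no difference between the replicate numbers. The fit with the replicate block was not covered by that trial. The SE of an edgeR log2 fold change was derived as its absolute value divided by the square root of the F value of the quasi-likelihood test. Log2 CPM used a prior count of 2. DESeq2 1.42.0, other scalings and filters, the replicate block and leaving out each library were alternatives. Depth was 53048343 to 63835779 counts per library, which sets the counting error only.

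Same-numbered libraries deviated together from their group means. Over all genes tested r was 0.270 (EV and MXD3), 0.364 (EV and STIM1::MXD3) and 0.450 (MXD3 and STIM1::MXD3). The first principal component (42.8% of the variance) separated the numbers. Same-numbered libraries were therefore described as pairs, and the replicate number was a block in an alternative fit. The main fit of the plasmid comparisons was by group and ignored the pairing.

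The 9 genes and the lists were chosen with earlier results of these data known, and the lists were written from general knowledge. Named genes were taken from the 9, MXD3 and STIM1, list genes past the threshold or at the extremes of a list, and the 2 genes most correlated with each of the 9. CNOT6L and ZFP36 were named beside their relatives after their values were seen. Heptamers were counted in canonical GENCODE transcripts and motifs in RefSeq promoters with Python 3.11.15 and pandas 2.3.3. Values of some list genes are not reported here.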

Additional observations from a re-analysis of the deposited data

How the results depend on the processing

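Counts of genes past the threshold were recomputed under each alternative. For the fusion against EV (1 gene by group) the count was 2 without a filter, 3 in DESeq2, 3 in edgeR with the replicate block and 18 in DESeq2 with the replicate block, and 1 on leaving out any library. For MXD3 against EV (1 gene) it was 3 in DESeq2, 45 in edgeR with the replicate block, 166 in DESeq2 with the replicate block, and 1 to 2 on leaving out a library, 2 without MXD3 replicate 2. Between the constructs (0 genes) it was 1 without a filter, 1 in DESeq2, 1 in edgeR with the replicate block and 8 in DESeq2 with the replicate block, and 0 on leaving out any library. For replicate 2 against replicate 1 (4499 genes) it was 3469 without the group term, that is with the replicate number as the only term. It was 2580 to 4424 on leaving out a library, the lowest values being 2580 and 2902 without STIM1::MXD3 replicate 1 or 2. Leaving out STIM1::MXD3 replicate 1 moved the count of list genes called between replicates from 68 to 42. ZFP36L1, with the fusion against EV, was called in DESeq2 with the block and in no other of these settings. Among the fold changes of the 9 genes, 14, 15 and 10 of 126 values in the plasmid comparisons and 11 of 108 in the replicate contrast changed sign, and 7, 3, 9 and 0 moved by more than 1 SD. For the plasmid comparisons this was the SD within plasmid groups, which includes the difference between the replicate numbers. For the replicate contrast it was the SD over the pair differences of the 3 plasmid groups. The cause of these shifts was not tested. A group left with 1 library was assumed to vary like the others.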
